A study of Arabidopsis thaliana with 6 samples.

Results

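Topoisomerase and SPO11 genes of Arabidopsis, related to the product of a rice transgene, were followed in seedlings with and without that transgene: SPO11-1 (AT3G13170), SPO11-2 (AT1G63990), BIN4 (AT5G24630), TOPII (AT3G23890) and TOP3A (AT5G63920). The 5 genes, of 13286 with a named probe set, were chosen by locus, as the plant's own relatives and partners of a topoisomerase 6 subunit. The rule used no measured values, though earlier results of these data were known when the genes were chosen. Each locus had 1 probe set annotated to it alone, which gave 5 probe sets among the 22746 tested. The study measured RNA of whole Arabidopsis thaliana seedlings of the Columbia ecotype, 10 days old and grown in continuous light on agar medium with sucrose, on 6 Affymetrix arrays. Wild type seedlings without the transgene gave 3 arrays. Seedlings overexpressing the rice OsTOP6A1 cDNA in the same ecotype gave the other 3. The labels call the samples of a genotype biological replicates, and do not name the promoter of the transgene or the number of independent lines, so the transgenic arrays may stand for a single insertion. The level of the rice transcript itself was not analysed here.

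DNA topoisomerases untangle DNA by cutting it, passing strands through the cut and sealing it again. Topoisomerase 6 is a type II enzyme built of A and B subunits, first known from archaea, and plants use it in the endocycle, the repeated replication without division that enlarges their cells. The A subunit has relatives in the SPO11 proteins, which make the DNA double strand breaks that start meiotic recombination. Of the genes followed here, the SPO11 genes encode such A-type proteins, BIN4 encodes a component of the plant topoisomerase 6 complex, TOPII encodes the type II enzyme common to eukaryotes, and TOP3A encodes a type I enzyme that works with a RECQ helicase to dissolve joined DNA molecules.

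The 6 arrays had median intensities between 37.5 and 39.3 units, and on each of them 34.9% to 36.0% of the probe sets read 16 units or less. Correlations across probe sets were 0.991 to 0.995 within a genotype and 0.975 to 0.978 between genotypes. Markers of green tissue were bright, with means over the 6 arrays of 4044 for RCA, which encodes Rubisco activase, 3351 for LHCB4.1, an antenna protein of photosystem II, and 3232 for PSAE-1, a subunit of photosystem I. Of 10 markers of flowers and pollen 2 had a named probe set. SDS, a meiotic cyclin, and SPL, a regulator needed for sporogenous cells, summed to 7.3 to 9.1 units in wild type and 4.9 to 7.6 units in transgenic arrays. Root markers had 4 named probe sets of 6, with summed intensities of 3790 to 4329 in wild type and 3845 to 4375 in transgenic arrays, and 0 of the 4 passed the limma test or had an unadjusted p under 0.05, beside 16.5% and 30.5% of all tested probe sets. None of the 6 markers of dividing cells had a named probe set (0 of 6). In RNA of whole seedlings, fewer cells of a type and less RNA per cell cannot be told apart.

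None of the members passed the test for a difference between the genotypes (0 of 5 at an adjusted p of 0.05 in limma, Benjamini-Hochberg adjustment over all tested probe sets). Among all 22746 probe sets 16.5% passed in either direction, 8.18% being higher and 8.31% lower in transgenic seedlings. Of the 5 members 3 had a mean under 16 units, a range in which 5.81% of the tested probe sets passed. At an unadjusted p under 0.05 the limma fit had 1 of the 5 members, SPO11-1, beside 30.5% of all probe sets. The median log2 fold change of the members, transgenic minus wild type, was -0.05, and that of all tested probe sets was -0.02. Each fold change was taken on log2(intensity + 16), a scale that makes changes of dim probe sets look smaller. An exact two-sided permutation test of 3 arrays against 3 cannot give a p below 0.1, and it gave 0.2 to 0.8 for the members.

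**Figure D1:**
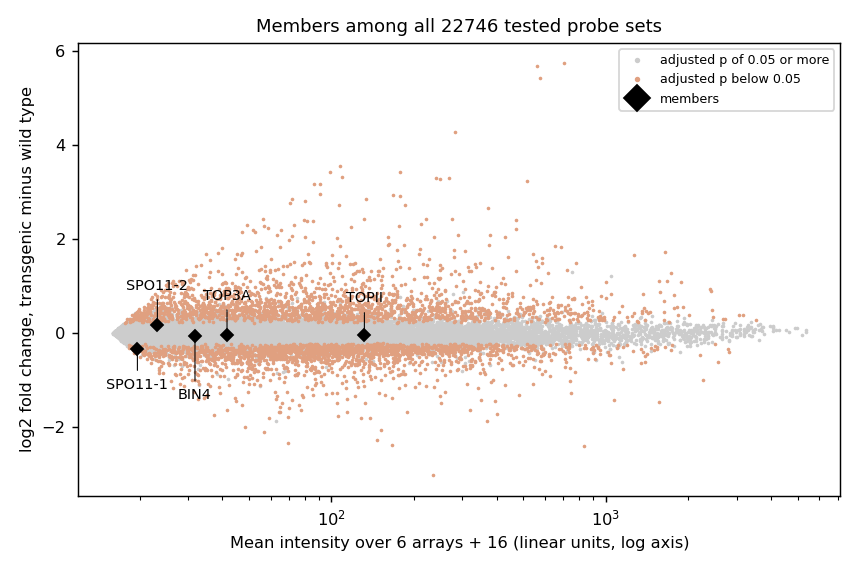
Each tested probe set is a point, with its mean intensity over the 6 arrays plus 16 on the x axis (log axis) and its log2 fold change, transgenic minus wild type, on the y axis. Orange points had an adjusted p below 0.05 and black diamonds are the 5 members, which lie between -0.33 and 0.18.

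The 2 SPO11 genes were dim in seedlings, with every array under 16 units. The probe set of SPO11-1, one of the proteins that break DNA in meiosis, read 9.7, 4.6 and 3.4 units on the wild type arrays and 3.4, 0.4 and 0.3 units on the transgenic arrays. The lowest wild type value and the highest transgenic value were equal, so the genotypes touched without crossing. Means were 5.9 ± 3.35 and 1.37 ± 1.76 (SD, n = 3 each). The log2 fold change was -0.33, with a 95% interval from -0.61 to -0.04 before any adjustment for the number of tests and a limma adjusted p of 0.116. Without wild type replicate 1, the brightest array for this gene, it was -0.21. A larger absolute fold change was found in 16.1% of all tested probe sets. With a pseudocount of 1 in place of 16 the log2 fold change was -1.68 (95% interval -3.15 to -0.21, limma adjusted p = 0.144), and with 64 it was -0.10. It passed at none of the 3 pseudocounts, and the size of the change depended on what was added to intensities this low. In a fit with the replicate number as a block SPO11-1 did pass, and the value of that fit stands with the other settings at the end.

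SPO11-2, which acts with SPO11-1 in making meiotic breaks, read 3.7, 9.0 and 4.8 units in wild type and 9.7, 8.9 and 7.2 units in transgenic seedlings. The second wild type array lay among the transgenic arrays, while the other wild type arrays lay below all of them. Means were 5.83 ± 2.80 and 8.6 ± 1.28 (SD, n = 3 each). The log2 fold change was 0.18 (95% interval -0.06 to 0.41, limma adjusted p = 0.284). With a pseudocount of 1 it was 0.56 and with 64 it was 0.06, while it was 0.11 without wild type replicate 1 and 0.28 without wild type replicate 2, and SPO11-2 passed in none of these settings. Its sign was opposite to that of SPO11-1, and whether the 2 genes differed in their response was not tested. Among the 8002 probe sets with a mean under 16 units, where both SPO11 genes and BIN4 fall, 5.81% passed the test, beside 22.3% of the 14744 brighter ones.

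**Figure D2:**
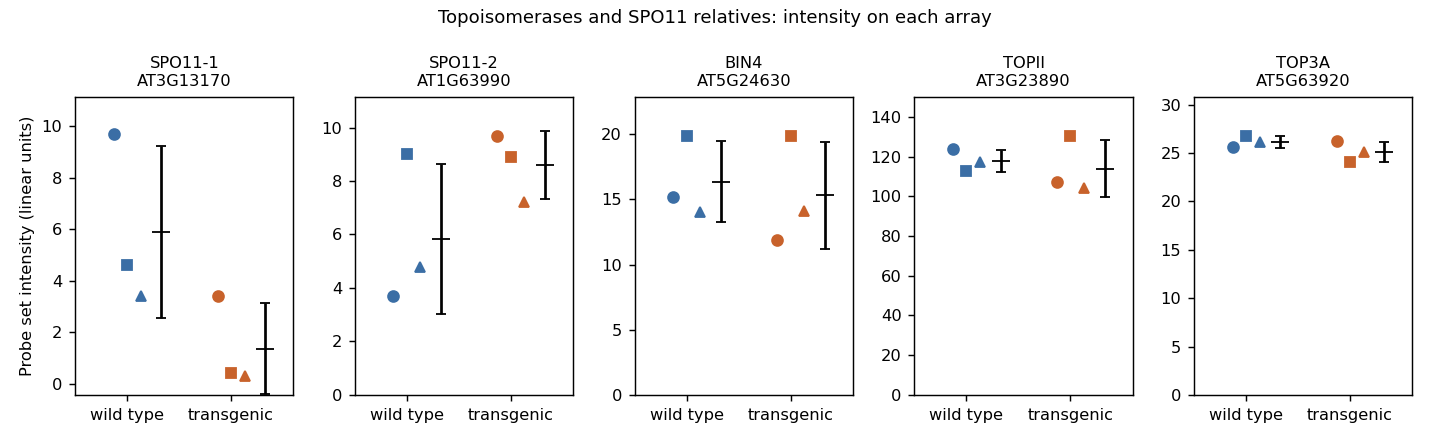
Panels show the intensity of each member's probe set (linear units, each panel with its own scale) on the 3 wild type arrays in blue and the 3 transgenic arrays in orange. Circles, squares and triangles are replicates 1, 2 and 3, and the black marks are means with SD. The genotypes share the value 3.4 in SPO11-1, and in the other 4 members their ranges overlap.

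BIN4, also known as MIDGET, had nearly the same readings in both genotypes. They were 15.2, 19.9 and 14.0 units in wild type and 11.9, 19.9 and 14.1 units in transgenic seedlings. The second array was the brightest in each genotype, at 19.9 units in both, and the ranges overlapped almost entirely. Means were 16.4 ± 3.12 and 15.3 ± 4.13 (SD, n = 3 each), with a log2 fold change of -0.05 (95% interval -0.32 to 0.21, limma adjusted p = 0.815). The sign of this value turned without wild type replicate 2 (0.02) or transgenic replicate 1 (0.03). Loss of BIN4 is known to give dwarf plants with fewer endocycles, and its transcript did not differ here beyond the spread between arrays.

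TOPII had a signal far above 16 units on every array. Its probe set read 123.7, 112.5 and 117.2 units in wild type and 107.2, 130.6 and 104.1 units in transgenic seedlings. The highest reading of all and the lowest 2 were transgenic, so the transgenic arrays spanned the wild type range on both sides. Means were 118 ± 5.62 and 114 ± 14.5 (SD, n = 3 each), and the coefficient of variation was 4.77% for wild type and 12.7% for the transgenic arrays. The log2 fold change was -0.05 (95% interval -0.26 to 0.17, limma adjusted p = 0.791), which changed sign without transgenic replicate 3 (0.01). At the ends of that interval the ratio of transgenic to wild type, on the intensity + 16 scale, was 0.835 and 1.12.

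TOP3A had the most even readings of the 5 members. They were 25.6, 26.8 and 26.1 units in wild type and 26.2, 24.1 and 25.1 units in transgenic seedlings. The first transgenic array lay inside the wild type range and the other transgenic arrays just below it. Means were 26.2 ± 0.603 and 25.1 ± 1.05 (SD, n = 3 each), with coefficients of variation of 2.3% and 4.18%. The log2 fold change of -0.04 had the narrowest interval among the members, from -0.18 to 0.11 (limma adjusted p = 0.752), or ratios of 0.884 to 1.08 on the intensity + 16 scale. In 83.4% of the tested probe sets the absolute fold change was larger.

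Other topoisomerase genes and genes listed as partners were then read from the same fit. Of 14 such loci 5 had a named probe set, and 1 of the 5 fell and 0 rose, beside the 16.5% of all tested probe sets that passed. Their median log2 fold change was 0.01. The topoisomerase 6 subunit genes RHL2 and TOP6B, the partner gene RHL1, the topoisomerase 1 genes and GYRA were not analysed here. The gene that fell was AT1G60460, for which the annotation used here gives no symbol. It read 13.5, 15.2 and 9.1 units in wild type and 2.9, 4.5 and 7.2 units in transgenic seedlings, so every transgenic array lay below every wild type array, although all 6 were under 16 units. Groups without overlap were found in 34.9% of all tested probe sets. Means were 12.6 ± 3.15 and 4.87 ± 2.17 (SD, n = 3 each), with a log2 fold change of -0.45 (95% interval -0.71 to -0.20, limma adjusted p = 0.0295).

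The call of AT1G60460 ended without wild type replicate 1 (limma adjusted p = 0.075), wild type replicate 2 (adjusted p = 0.0936), transgenic replicate 1 (adjusted p = 0.0846) or transgenic replicate 2 (adjusted p = 0.0913). It also ended with a pseudocount of 1 (log2 fold change -1.25, adjusted p = 0.0746) or 64 (log2 fold change -0.15, adjusted p = 0.0512) and without variance moderation (adjusted p = 0.125), and in the fit with the replicate block. Its fold change stayed negative in all 16 alternatives that gave a value, and the call held in 8 of them.

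**Figure D3:**
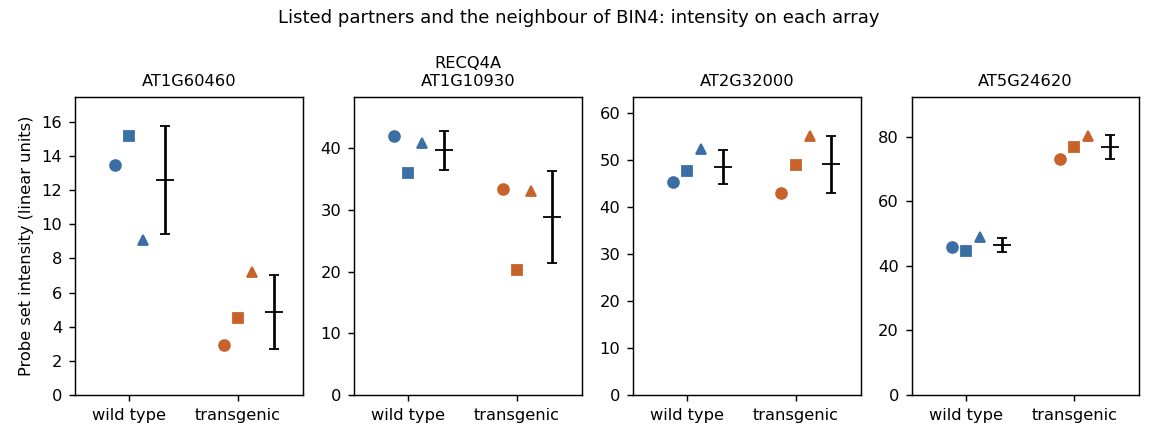
Panels show the intensity (linear units, each panel with its own scale) of 3 loci listed as topoisomerases or partners and of AT5G24620, a gene near BIN4, on the 3 wild type arrays in blue and the 3 transgenic arrays in orange. Circles, squares and triangles are replicates 1, 2 and 3, and black marks are means with SD. The genotypes overlap only in AT2G32000, and groups without overlap were found in 34.9% of all tested probe sets.

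RECQ4A (AT1G10930), the RECQ helicase that acts with TOP3A, had a lower mean in transgenic seedlings but did not pass. Its probe set read 42.1, 36.1 and 40.9 units in wild type and 33.4, 20.3 and 33.1 units in transgenic seedlings. The genotypes did not overlap, as in 34.9% of all tested probe sets, and the second transgenic array stood apart at the low end. The log2 fold change was -0.32 (95% interval -0.62 to -0.03, limma adjusted p = 0.132), or -0.18 without transgenic replicate 2. Its close relative RECQ4B read 7.7, 7.7 and 8.8 units in wild type and 14.6, 8.0 and 7.1 units in transgenic seedlings, where the first array alone was high, and its log2 fold change of 0.09 did not pass (limma adjusted p = 0.629). AT2G32000, entered in the list as a topoisomerase locus without a symbol in the annotation, had means of 48.5 ± 3.62 and 49.1 ± 6.15 units (SD, n = 3 each) and a log2 fold change of 0.01. GYRB3, named for the B subunit of DNA gyrase, had 2 probe sets, with log2 fold changes of 0.06 and 0.01 at means over the 6 arrays of 51.5 and 12.0 units.

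**Figure D4:**
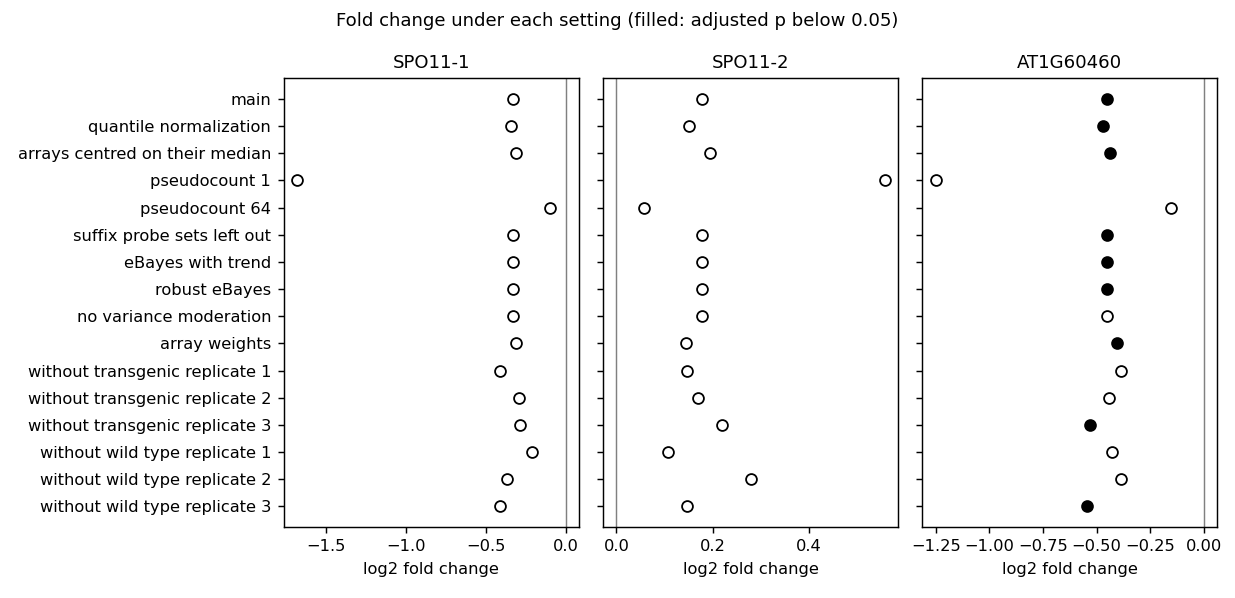
Log2 fold changes of SPO11-1, SPO11-2 and AT1G60460 (x axes, each panel with its own scale) are shown for the reported setting and 15 alternatives, the replicate block left out (y axis), with filled points for an adjusted p below 0.05. No point shown lies across 0, and SPO11-1 and SPO11-2 have no filled point among the settings shown. In the omitted block SPO11-1 passed and AT1G60460 did not. The pseudocounts of 1 and 64 move each value the most.

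Genes of meiotic recombination, the process the SPO11 proteins start, had 10 named probe sets of 44 loci, and 0 of the 10 passed the test. All 10 had a mean under 16 units, a range in which 5.81% of the probe sets tested passed, so this count is near that of dim probe sets in general. At an unadjusted p under 0.05 there were 3 of 10 (limma), beside 30.5% of all tested probe sets, and 6 fold changes were positive and 4 negative, with a median of 0.04. FANCM, a helicase that limits crossovers, read 9.0, 9.3 and 9.3 units in wild type and 12.8, 11.1 and 15.7 units in transgenic seedlings. The groups did not overlap, as in 34.9% of all tested probe sets, and the log2 fold change was 0.21 (limma adjusted p = 0.104). EME1A, a partner of the MUS81 nuclease, had means of 15.9 ± 2.24 and 11.7 ± 1.45 units (SD, n = 3 each). Its groups did not overlap either, in the opposite direction, with a log2 difference of -0.20 (limma adjusted p = 0.130). ATMND1, which helps strand exchange, had means of 12.3 ± 4.84 and 13.9 ± 2.82 units (SD, n = 3 each). AT1G12790, listed without a symbol, went from 9.57 ± 3.32 to 15.1 ± 3.33 units (SD, n = 3 each, limma adjusted p = 0.144). AT3G27120, likewise without a symbol, had a log2 fold change of 0.03. RCK, also named MER3, a helicase for crossover formation, had a log2 difference of -0.26 (limma adjusted p = 0.211). DFO, a gene needed for break formation with SPO11-1, had means of 1.37 ± 0.723 and 1.0 ± 0.1 units (SD, n = 3 each).

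The lists for DNA damage and for replication had few named genes, and 0 of them passed the limma test or had an unadjusted p under 0.05. Over all probe sets these shares were 16.5% and 30.5%, which so few genes cannot be set apart from. Of 30 DNA damage response loci 3 were named, with log2 fold changes of -0.13 for ATLIG4, the DNA ligase of end joining, 0.01 for RAD9, a checkpoint protein, and -0.16 for AT4G32700, whose second and dimmer probe set, not counted above, had -0.19 (limma adjusted p = 0.108). Their adjusted p in limma were between 0.176 and 0.956. Of 39 replication and endocycle loci 2 were named. PRL, the MCM7 subunit of the replicative helicase, had means of 167 ± 18.6 and 159 ± 5.56 units (SD, n = 3 each) and a log2 fold change of -0.06. SIM, or SIAMESE, an inhibitor that switches trichome cells to the endocycle, read 86.0, 83.3 and 83.5 units in wild type and 81.5, 81.5 and 94.7 units in transgenic seedlings, a log2 difference of 0.02 with a limma adjusted p of 0.892.

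**Figure D5:**
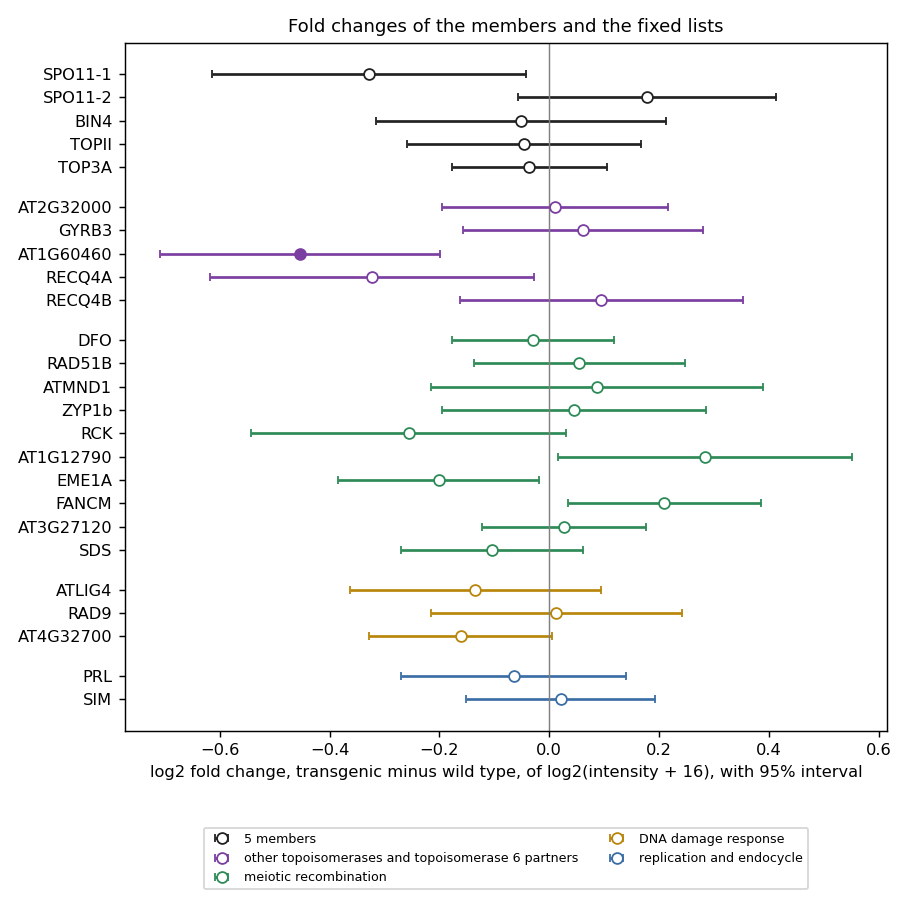
Points are log2 fold changes, transgenic minus wild type (x axis), with 95% intervals, for the 5 members and the named genes of 4 fixed lists (y axis, coloured by list). Only AT1G60460 is filled, which marks an adjusted p below 0.05.

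The genes next to the members were read as a check on their surroundings, in the gene order of assembly TAIR10.1. Of the 10 nearest named genes, 1 before and 1 after each member, 1 passed the test, beside 16.5% of all tested probe sets. It was AT5G24620, which is separated from BIN4 by 1 gene. It read 45.8, 44.7 and 48.8 units in wild type and 72.9, 76.8 and 80.3 units in transgenic seedlings. All transgenic arrays stood above all wild type arrays, with means of 46.4 ± 2.12 and 76.7 ± 3.70 (SD, n = 3 each) and a log2 fold change of 0.57 (95% interval 0.42 to 0.72, limma adjusted p = 0.00145). The call held in all 17 alternatives, with adjusted p between 0.000457 and 0.0123, while that of BIN4 itself was absent in each that gave a value. AT5G24690, the nearest named gene on the other side with 7 genes between, had means of 375 ± 23.5 and 436 ± 22.7 (SD, n = 3 each), a log2 fold change of 0.21 and a limma adjusted p of 0.102, and its groups did not overlap, as in 34.9% of all tested probe sets. Directly before SPO11-1, AT3G13160 had a log2 difference of -0.21 (limma adjusted p = 0.155) with groups that did not overlap, and directly after it AT3G13175 had 0.10. The genes beside TOPII, AT3G23880 and AT3G23900, had log2 fold changes of -0.29 and -0.06. FCLY, which encodes farnesylcysteine lyase, and AT5G63930 beside TOP3A had 0.11 and -0.10. AT1G63980 and AT1G64010, each 1 gene away from SPO11-2, had 0.01 and 0.11.

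The named genes whose readings followed each member most closely over the 6 arrays were found by Pearson correlation of log2(intensity + 16) among probe sets with a mean of at least 50 units. The arrays share their scaling, and a search through 5226 probe sets over so few arrays finds high values readily, so these are descriptions. For SPO11-1 they were NDB2, an external NAD(P)H dehydrogenase of mitochondria, AT1G11700 and AT5G11560, with r of 0.994, 0.989 and 0.988. NDB2 read 267.9, 200.6 and 169.3 units in wild type and 168.8, 127.0 and 129.3 units in transgenic seedlings, with the same array highest as for SPO11-1 and a limma adjusted p of 0.0762. For SPO11-2 they were AT1G35510, AT4G04940 and AT5G63180, with r of 0.993, 0.964 and 0.964. For BIN4 they were AT5G62890, AT5G26360 and AT1G72230, with r of 0.977, 0.965 and 0.945. For TOPII they were AT3G23300, AT4G26550 and AT4G31790, with r of 0.992, 0.973 and 0.972, and the rank order of the 6 arrays was the same as that of TOPII in all 3 (Spearman's rho of 1). For TOP3A they were AT1G22060, AT3G02080 and AT1G05060, with r of 0.992, 0.978 and 0.971. Between the genotypes 0 of these 15 genes passed the limma test and 3 had an unadjusted p under 0.05. The shares of all tested probe sets were 16.5% and 30.5%. The limma adjusted p of the 15 genes were between 0.0762 and 0.871. They were picked for following members that did not pass, over the same arrays, so these counts follow largely from the choice. All had a mean of at least 50 units, and of the probe sets with a mean of 16 or more 22.3% passed.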

How the data were processed

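The authors deposited probe set intensities on a linear scale, 1 column per array. Per the labels' protocols, total RNA extracted with TRIzol was made into biotin-labelled cRNA. Which software and scaling they used is not stated in these sources. Every array had a mean of 100.0 after trimming 2% at each end, so no further scaling was applied. The values come from 6 arrays, which limits the precision.

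The 64 control probe sets were left out and 22746 were tested. The platform annotation gave 13513 of these 1 gene, 503 several and 8730 none, and the RefSeq table of TAIR10.1 held the gene of 13436. A gene with several probe sets was represented by the one with the highest mean. No table of promoter or protein sequences was used here, and no coordinates are given since the build behind the arrays is not stated.

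Transgenic and wild type arrays (3 each) were compared on log2(intensity + 16) with limma 3.58.1 (R 4.3.3, lmFit, then eBayes). Benjamini-Hochberg adjustment was used with a threshold of 0.05. The code was also run on simulated arrays with independent noise, which does not show how it performs on these data. The members and the 8 lists were chosen with earlier results of these data known, and the lists were drawn up by locus. Named in each list were the genes past the threshold and up to 4 others with the highest mean. Of the meiotic genes RCK, DFO and FANCM fall outside that rule and were named after their values were seen. For each of the 5 genes the 3 most alike probe sets and the nearest named gene on each side were also named. Alternatives changed the scaling, pseudocount, filters, variance model, array weights and replicate block, and left out each array.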

Additional observations from a re-analysis of the deposited data

Results flagged for a closer look

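Among the control probe sets, which entered no comparison, AFFX-r2-At-U12639_at had a signal in transgenic arrays well above that in wild type arrays. It read 0.8, 0.5 and 2.3 units in wild type and 23.9, 29.5 and 26.8 units in transgenic seedlings, with a transgenic mean of 26.7 ± 2.80 (SD, n = 3). No gene is given for it in the annotation used here.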

How the results depend on the processing

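The 5 members had 0 calls in 16 of 17 alternatives, and 1 with the replicate block, SPO11-1 (log2 fold change -0.33, limma adjusted p = 0.0321). Deviations of same-numbered arrays correlated at 0.191, 0.0572 and 0.113, and those of differently numbered arrays at -0.159 to 0.0818. Each wild type array correlated best with the transgenic array of its own number. Transgenic replicates 1 and 3 likewise correlated best with their own number. Transgenic replicate 2 correlated best with wild type replicate 3 (0.0818, beside 0.0572 with wild type replicate 2). The reported fit did not take the numbers to pair the samples, and whether they do was not settled. With the replicate block 3592 probe sets passed, beside 3751 without it. Without single arrays the log2 fold change ranged from -0.41 to -0.21 for SPO11-1, 0.11 to 0.28 for SPO11-2, -0.16 to 0.0267 for BIN4, -0.14 to 0.00721 for TOPII and -0.05 to -0.02 for TOP3A. The count of 3751 was 2143 with a pseudocount of 1, 1930 without variance moderation and 2181 to 3433 without single arrays (the lowest without transgenic replicate 3), and it rose to 4336 with array weights, 4111 with a pseudocount of 64 and 4059 with dim probe sets removed. The single call in the topoisomerase and partner list, AT1G60460, became 0 with pseudocounts of 1 and 64, without variance moderation, with the replicate block (limma adjusted p = 0.0574) and with dim probe sets removed, which takes AT1G60460 out, and was 0 to 1 without single arrays. That filter also removes SPO11-1, SPO11-2 and BIN4, so it gave them no value. The other lists kept 0 calls in every alternative that gave a value. The cause of the other changes was not tested. Low signal also limits the SPO11 genes, since neither reached 16 units on any array.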
